A study of Arabidopsis with 9 samples.

Results

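The comparison described here sets 14-day-old Arabidopsis thaliana seedlings of the mutant syd-5 against wild type (WT) seedlings of the same age. Both were grown in long days and given no treatment, and 3 biological replicates of each genotype were sequenced. Its members are the loci that the authors' deposited table tested between syd-5 and WT and that reached 1 FPKM (an expression level scaled by transcript length and library size) in at least 1 of both genotypes. There are 18326 such loci of 31747 in the table. The table gives 1 pooled FPKM for each locus and genotype, with the authors' own test over the replicates. The spread between replicates and the read depth therefore cannot be seen here. The only error at hand follows from the authors' test statistic, and the log2 ratio divided by it is called the implied standard error. Whole seedlings were used, and syd-5 is a single mutant allele, so each value is a mean over all seedling tissues of 1 mutant line.

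SYD encodes a large ATPase of the SWI/SNF family, which uses ATP to slide or evict nucleosomes and so opens or closes regulatory DNA. In Arabidopsis it acts in the shoot meristem, in floral organ identity and in hormone responses. The transcripts in such a mutant include direct targets of the remodeller and genes that respond to the altered plant, and steady-state levels do not separate them.

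The level of SYD itself was examined first. SYD (AT2G28290, chromosome 2, 12054736 to 12073412, TAIR10) stood at 4.11 FPKM in syd-5 and 23.1 FPKM in WT in the authors' deposited table (q = 0.000567). The log2 fold change computed from these levels was -2.24. This and all fold changes below are log2 of (syd-5 FPKM + 1) over (WT FPKM + 1), which understates the change of weakly expressed genes. A gene is said to have risen or fallen where the authors' q was under 0.05.

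Of the 18326 tested loci 5132, or 28.0%, passed this threshold in the authors' deposited table. In syd-5 2540 loci rose, which is 13.9% of those tested, and 2592 fell, which is 14.1%. Most of these changes were small, since 75.6% of them were under 2-fold. The median log2 fold change was 0.68 among rises and -0.65 among falls. A 4-fold difference was reached by 80 rises and 88 falls. A further 23 loci differed at least 4-fold and did not pass, and their median implied standard error was 2.196, against 0.294 over all tested loci. Among them were PAP14 (0.183 FPKM in syd-5 and 9.60 in WT) and HSP17.6A (19.7 FPKM in syd-5 and 0.222 in WT). Their implied standard errors were 0.987 and 1.51 and their q 0.236 and 0.0508. That error does not by itself decide which loci pass, since the authors' p does not follow from it alone. The plot of difference against level shows both arms of the response.

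**Figure D1:**
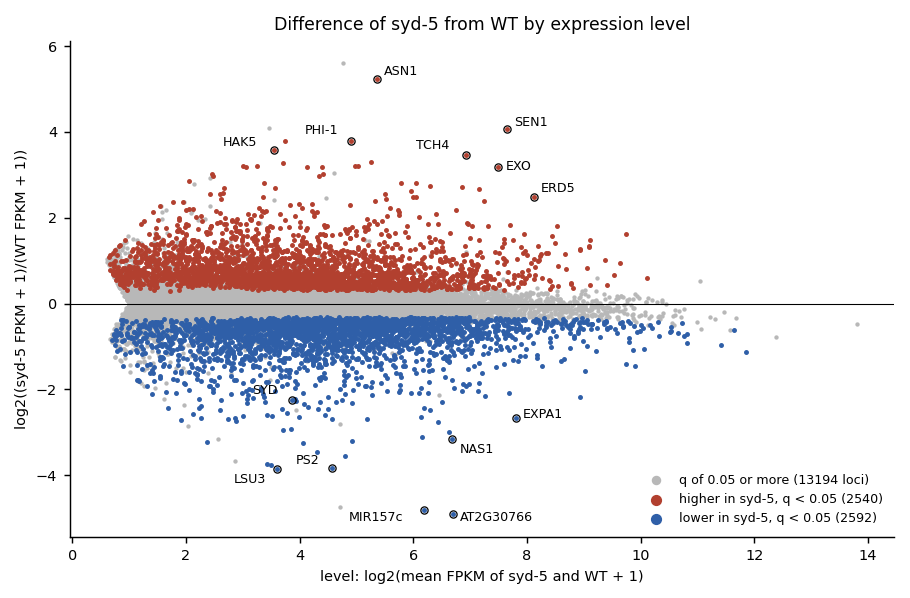
Each point is a tested locus, with its level as log2 of the mean FPKM of syd-5 and WT plus 1 on the x axis and its log2 fold change of syd-5 over WT on the y axis. The 2540 rises are red, the 2592 falls blue and the other loci grey, and ASN1 (5.23) and AT2G30766 (-4.90) mark the ends of the called range.

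The calls were not spread evenly over expression levels. When the loci were ranked by mean FPKM and cut into 5 equal parts, 15.1% of the lowest part rose and 8.62% fell in syd-5, and the median implied standard error there was 0.606. Of the highest part 12.5% rose and 20.1% fell, with a median implied standard error of 0.229. The summed FPKM of all tested loci was 809887 in syd-5 and 874329 in WT, so the scaling of abundant transcripts moves with this shift, and its part in it was not tested. Chromosomes differed little, with 26.0% of loci called on chromosome 3 and 29.9% on chromosome 2. Rises and falls were carried by genes of similar length, with medians of 2317 bp for single-gene loci that rose, 2249 bp for those that fell and 2424 bp for those not called.

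Gene type made a larger difference. Of 80 tested loci that RefSeq types as transcribed pseudogenes 21 rose and 1 fell, and of 78 other pseudogenes 15 rose and 5 fell. Protein-coding loci gave 2289 rises and 2346 falls among 15840. Pseudogenes can share reads with the intact gene copies they resemble, so the locus that produced the reads is uncertain. Of 13 tested microRNA precursors at a locus of their own 0 rose and 5 fell. MIR157c, a precursor of a microRNA that restrains SPL transcription factors, stood at 4.05 FPKM in syd-5 and 140.1 FPKM in WT (log2 fold change -4.80). The other falls among these were MIR414 (-1.05), MIR167d (-0.73), MIR168a (-0.72) and MIR157a (-0.55). Both tested loci that merge precursors alone fell as well. MIR169k/MIR169l stood at 0.200 FPKM in syd-5 and 3.22 in WT (-1.81) and MIR169m/MIR169n at 0.258 FPKM in syd-5 and 1.77 in WT (-1.14), with implied standard errors of 2.67 and 2.21. Precursor levels do not give the amount of the mature microRNA. Of 15 tested SPL genes 3 rose and 1 fell, a called share of 26.7%, near the 28.0% over all tested loci. Their median log2 fold change was 0.06. The called genes were SPL8 at 1.12, SPL2 at 0.99, SPL4 at 0.72 and SPL1 at -0.47, although SPL8 was 4.08 FPKM in syd-5 and 1.33 in WT and thus low.

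**Figure D2:**
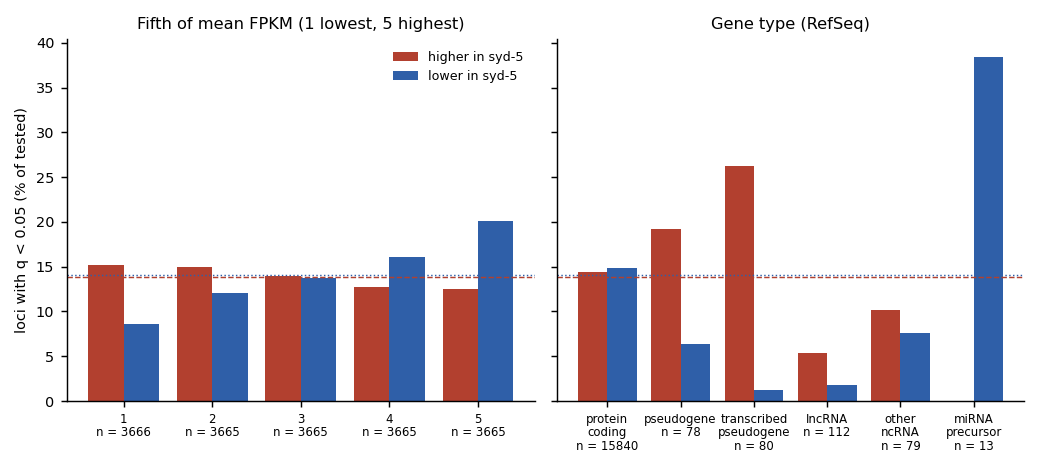
The bars give the percent of tested loci that rose (red) or fell (blue) in syd-5 at q under 0.05, by 5 equal parts of mean FPKM on the left and by RefSeq gene type on the right, with the number of tested loci under each. The dashed and dotted lines mark 13.9% and 14.1% over all tested loci. Falls outnumber rises in the highest part, and rises outnumber falls among pseudogenes.

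Whole seedlings mix leaves, roots and stems, so the tissue markers were counted beside the gene groups. In bulk tissue, fewer cells of a type and less RNA per cell cannot be told apart. Of 10 leaf markers, genes of Rubisco, light harvesting and carbon fixation, 0 rose and 0 fell, with a median log2 fold change of -0.37 as deposited. After quantile normalization it was 0, but that step gives equal ranks equal values. Abundant loci that keep their rank thus come to 0 by construction, and no conclusion is drawn from it. RBCS3B, a small subunit of Rubisco, had 3947 FPKM in syd-5 and 6725 FPKM in WT, and that difference did not pass the threshold. Of 13 markers of root endodermis and root hairs 7 rose and 0 fell, with a median of 0.44, led by the Casparian strip gene CASP5 at 7.19 FPKM in syd-5 and 2.01 in WT. Of 5 guard cell markers 0 rose and 4 fell, with a median of -1.16, among them the potassium channel gene KAT1 at 4.15 FPKM in syd-5 and 13.3 in WT. The floral gene SEP3 rose to 19.4 FPKM in syd-5, against 2.14 in WT, while AP1 was listed at 0 in both. AP3, at 1.08 FPKM in syd-5 and 0.0805 in WT, did not pass. AG and PI were listed higher in syd-5 but stayed under 1 FPKM in both genotypes. None of the 5 seed markers was tested at 1 FPKM. The part of such tissue differences in the gene groups below was not tested.

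Genes of energy starvation had the highest share of rises among the lists with at least 8 tested loci. When sugar runs low or light is absent, plants switch on enzymes that break down amino acids, proteins and stored sugars, under control of the kinase SnRK1 and its bZIP partners. Of 23 tested members 20 rose in syd-5 and 0 fell in the authors' deposited table, with a median log2 fold change of 1.14, against 0.01 over all tested loci. ASN1, which makes asparagine as a nitrogen carrier in the dark, stood at 78.7 FPKM in syd-5 and 1.12 FPKM in WT. SEN1 (AT4G35770), also known as DIN1 for its induction by darkness, stood at 376 FPKM in syd-5 and 21.6 FPKM in WT. They led the rises of loci that averaged 5 FPKM or more over syd-5 and WT.

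The enzymes of amino acid breakdown followed the same direction. ERD5, the proline dehydrogenase that starts proline breakdown, had 471 FPKM in syd-5 and 83.3 FPKM in WT (log2 fold change 2.48, implied standard error of the ratio 0.26). BCAT-2, a transaminase of branched-chain amino acids, had 15.03 FPKM in syd-5 and 2.41 FPKM in WT. Downstream of it, the ketoacid dehydrogenase subunit genes DIN4 and BCE2 rose by 1.24 and 1.101, the isovaleryl-CoA dehydrogenase gene IVD by 0.85, and the methylcrotonyl-CoA carboxylase genes MCCA and MCCB by 1.74 and 1.04. The glutamate dehydrogenase genes GDH2 (351 FPKM in syd-5, 158.5 in WT) and GDH1 (91.8 FPKM in syd-5, 47.0 in WT) rose too. The members that did not pass were D2HGDH (-0.09), a merged locus with TPS9 (0.10) and ETFQO (0.48). DIN10, a raffinose synthase family gene, reached 575 FPKM in syd-5 and 162 FPKM in WT.

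Sugar handling was mixed. Of 20 tested sugar transporters 10 rose and 4 fell. STP1, a monosaccharide importer at the plasma membrane, had 193 FPKM in syd-5 and 51.6 FPKM in WT, and the sucrose exporters SWEET11 (321 FPKM in syd-5, 204 in WT) and SWEET12 (96.1 FPKM in syd-5, 66.0 in WT) rose. SWEET1 and SWEET2 fell by 0.91 and 0.80. Of 25 starch genes 0 rose and 9 fell, led by CT-BMY, a chloroplast beta-amylase that degrades starch at night, at 91.5 FPKM in syd-5 and 256 FPKM in WT. Only 5 of these 9 falls passed q under 0.01. Among 26 autophagy genes 2 rose and 2 fell, a share below that of all loci. Senescence genes did not move as 1 group, since 4 of 17 rose and 8 fell. The senescence regulators NAC6 (AT5G39610; 8.69 FPKM in syd-5 and 61.7 in WT) and NAP (2.25 FPKM in syd-5 and 12.4 in WT) fell, as did the chlorophyll breakdown genes NYE1 (-0.81), PPH (-0.63) and NYC1 (-0.59). SAG13 rose to 29.3 FPKM in syd-5, against 5.80 in WT, and SAG12 was listed at 1.19 FPKM in syd-5 and 0 in WT.

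**Figure D3:**
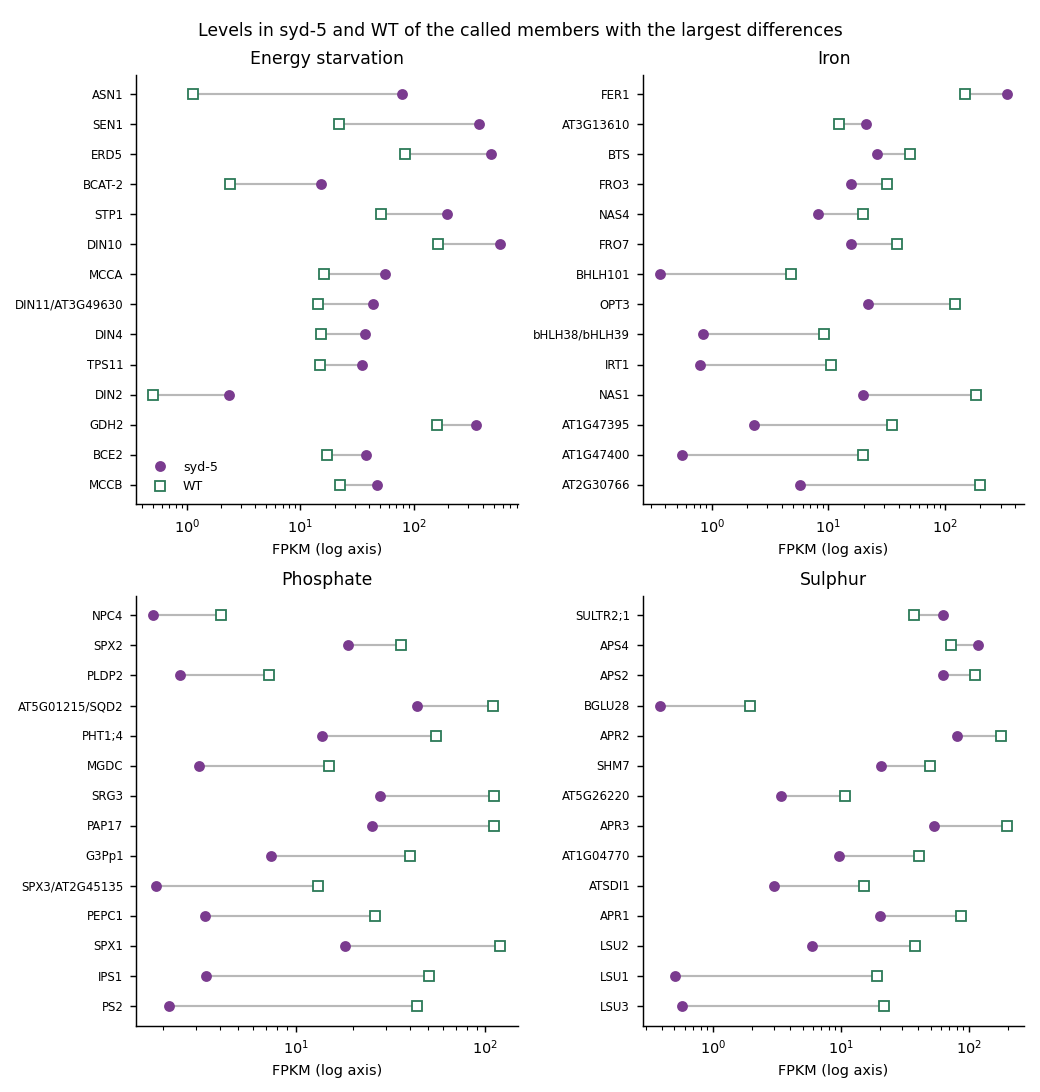
Filled circles give the FPKM in syd-5 and open squares the FPKM in WT, on a log axis, for the 14 called loci with the largest absolute log2 fold change in each of 4 groups of lists. Each pair is joined by a line. The energy starvation loci have the circle to the right, as with ASN1 at 78.7 against 1.12 FPKM, and most iron, phosphate and sulphur loci have it to the left.

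Mineral nutrient genes gave the opposite picture to the energy genes, with falls of starvation-induced transcripts for 3 nutrients. Plants that lack iron, phosphate or sulphate induce small signalling proteins, transporters and salvage enzymes, so these transcripts serve as reporters of nutrient status. Of 14 tested iron signalling loci 7 fell and 1 rose, by the q of the authors' deposited table, with a median of -0.65. The transcription factor gene BHLH101 had 0.362 FPKM in syd-5 and 4.77 FPKM in WT (-2.08), and the merged locus of bHLH38 and bHLH39 had 0.835 FPKM in syd-5 and 9.23 FPKM in WT (-2.48). These bHLH proteins pair with FRU, also known as FIT, to activate iron uptake. FRU itself stood at 7.49 FPKM in syd-5 and 6.28 in WT and did not pass, and BHLH100, at 0.260 FPKM in syd-5 and 5.53 in WT, had an implied standard error of 1.16 and a q of 0.290 in the authors' deposited table. BTS, a ubiquitin ligase that restrains the response, fell by 0.93. The largest fall of all, AT2G30766, had 5.70 FPKM in syd-5 and 199 FPKM in WT, but its log2 ratio of -5.13 carries an implied standard error of 1.57.

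Uptake and transport followed in part. Of 27 tested iron uptake, transport and storage genes 12 fell and 4 rose. NAS1, which makes the iron chelator nicotianamine, had 19.8 FPKM in syd-5 and 184 FPKM in WT (-3.15). OPT3, a phloem transporter that signals iron status to the root, had 21.9 FPKM in syd-5 and 122 FPKM in WT. The root importer IRT1 had 0.801 FPKM in syd-5 and 10.6 in WT, and the ferric reductase FRO2 had 0.647 FPKM in syd-5 and 1.61 in WT. FER1, a ferritin that stores iron in plastids, rose to 339 FPKM in syd-5, against 148 in WT (1.19). FER3 and the merged locus of FER4 did not pass, at 0.14 and 0.23.

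Phosphate starvation genes had the highest share of falls among the lists with at least 8 tested loci, with 18 of 28 tested members, and 3 rose. Their median was -1.07. The set spans sensors, phosphatases and lipid remodelling enzymes. SPX1, an inositol pyrophosphate sensor induced by low phosphate, had 18.2 FPKM in syd-5 and 120 FPKM in WT, and SPX2 and the merged locus of SPX3 fell by 0.89 and 2.31. The pyrophosphatase gene PS2 had 2.14 FPKM in syd-5 and 43.5 FPKM in WT, the non-coding RNA gene IPS1 had 3.36 FPKM in syd-5 and 50.2 FPKM in WT, and the acid phosphatase gene PAP17 had 25.1 FPKM in syd-5 and 111 FPKM in WT. The galactolipid synthase gene MGDC (-1.96), the glycerophosphodiesterase gene SRG3 (-1.97) and the sulpholipid synthesis locus of SQD2 (-1.31) fell, which are enzymes that replace phospholipids when phosphate is scarce. The transporter gene PHT1;4 fell by 1.92 and PHT1;1 by 0.46. The genes that rose were RNS1 (0.67), the xylem exporter PHO1 (0.64) and PHO2 (0.42), a ubiquitin-conjugating enzyme that restrains phosphate uptake. PHR1, the master regulator of the response, stood at 37.3 FPKM in syd-5 and 34.1 in WT and did not pass.

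Of 25 tested sulphur genes 14 fell and 4 rose, with a median of -1.04. The low-sulphur marker genes LSU1 (0.505 FPKM in syd-5, 19.1 in WT), LSU2 (5.97 FPKM in syd-5, 37.5 in WT) and LSU3 (0.573 FPKM in syd-5, 21.7 in WT) fell. The APS reductase genes of sulphate reduction fell together, with APR1 at 19.9 FPKM in syd-5 and 86.0 in WT, APR3 at 53.0 FPKM in syd-5 and 197 in WT and APR2 at 79.4 FPKM in syd-5 and 177 in WT. The ATP sulphurylase genes of the step before it split, with APS2 at -0.81 and APS3 and APS4 at 0.59 and 0.71. The transporter SULTR2;1 rose by 0.75. EIL3, also called SLIM1, the main regulator of the sulphur response, fell by 0.39. The fall of LSU3 passed q under 0.05 and not q under 0.01.

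The other nutrient lists were examined in the same way. Of 29 nitrogen genes 6 rose and 6 fell, with the nitrate transporters NRT1.8 (15.6 FPKM in syd-5, 3.94 in WT) and NRT1.5 (48.5 FPKM in syd-5, 19.7 in WT) among the rises and the ammonium transporter AMT1;2 (12.8 FPKM in syd-5, 39.9 in WT) among the falls. At q under 0.01 the nitrogen list had 4 rises and 2 falls. For potassium 3 of 23 rose and 7 fell, so falls outnumbered rises there too. HAK5, the high-affinity importer induced by low potassium, had 20.5 FPKM in syd-5 and 0.792 FPKM in WT (3.58), whereas the phloem channel gene KT2/3 had 2.45 FPKM in syd-5 and 11.5 FPKM in WT (-1.86). For zinc and copper 6 of 29 rose and 5 fell. The copper and zinc superoxide dismutase genes CSD2 (208 FPKM in syd-5, 74.1 in WT) and CSD1 (190 FPKM in syd-5, 86.0 in WT) led the rises. Their known regulator in low copper is microRNA398, and its precursor MIR398c stood at 8.80 FPKM in syd-5 and 8.41 in WT, which did not pass.

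**Figure D4:**
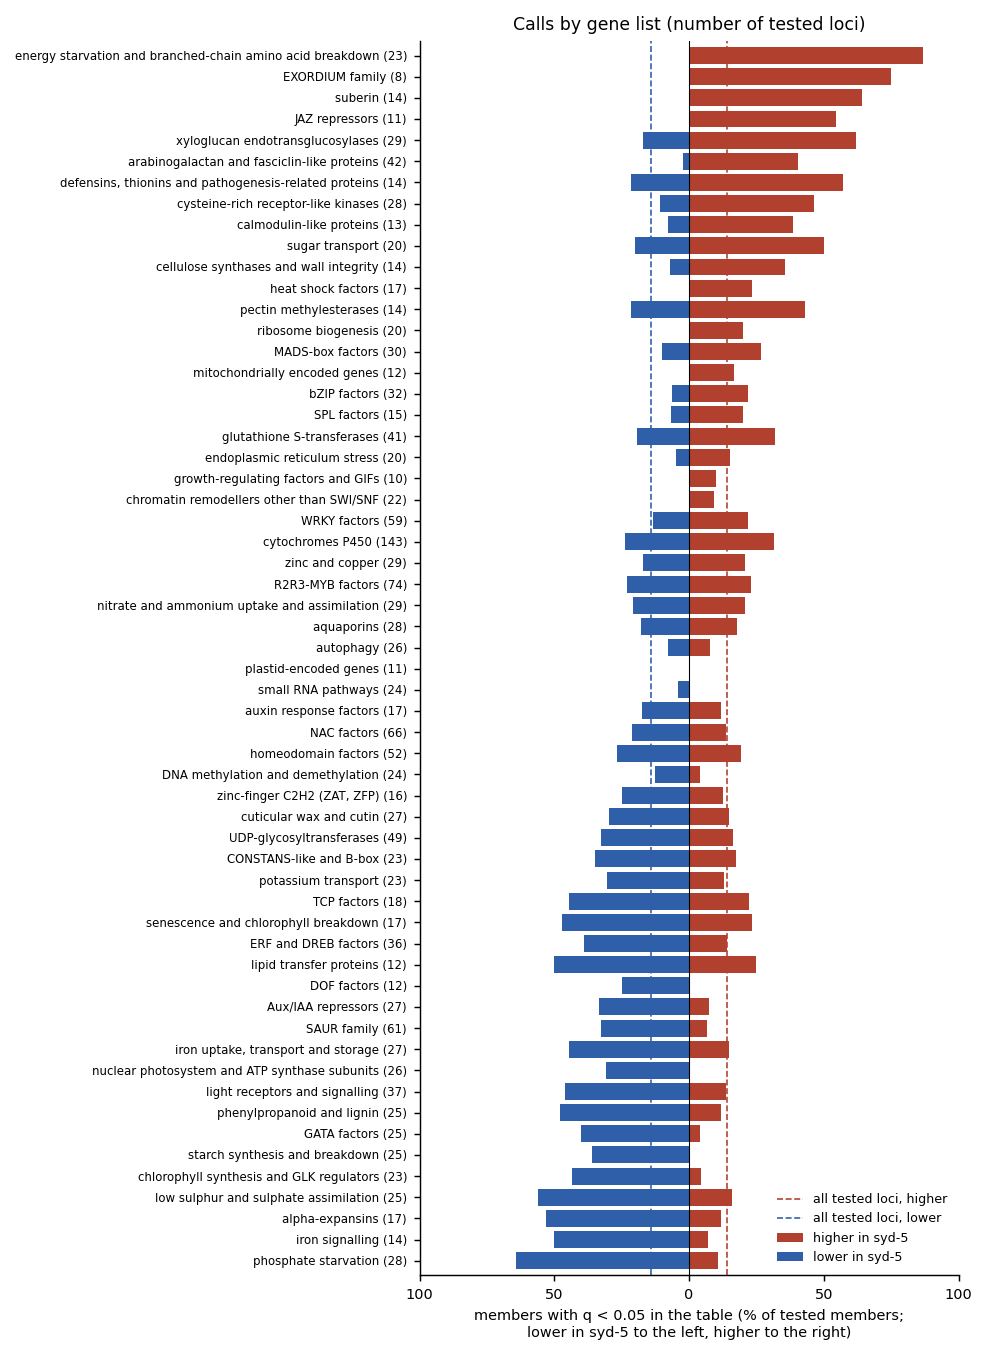
For each gene list with at least 8 tested loci, bars to the right give the percent of tested loci that rose in syd-5 and bars to the left the percent that fell, at q under 0.05; the number of tested loci is in brackets. Dashed lines mark 13.9% and 14.1% over all tested loci. Energy starvation stands at the top, with 20 of 23 loci higher, and phosphate starvation at the bottom, with 18 of 28 lower.

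Cell wall genes formed the other large block. Growth of a plant cell needs controlled loosening of its wall, for which expansins unlock bonds between polymers and xyloglucan endotransglucosylases (XTH) cut and rejoin xyloglucan. These families went in opposite directions in syd-5. Of 29 tested XTH loci 18 rose and 5 fell in the authors' deposited table, with a median of 1.01, and their summed level was 2313 FPKM in syd-5 and 1425 FPKM in WT. TCH4, a touch-induced XTH, had 223 FPKM in syd-5 and 19.2 FPKM in WT (3.47, implied standard error of the ratio 0.26). XTR6 had 55.9 FPKM in syd-5 and 5.19 in WT, and XTH4, the most abundant member in syd-5, had 561 FPKM in syd-5 and 250.04 in WT. The falls were XTH31 (43.3 FPKM in syd-5, 144 in WT), XTH32, XTH7 (123 FPKM in syd-5, 308 in WT), XTH20 and XTH28.

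Of 17 tested alpha-expansins 9 fell and 2 rose, and the summed level was 375 FPKM in syd-5 and 1053 FPKM in WT. EXPA1, the most abundant in WT, had 59.8 FPKM in syd-5 and 385 FPKM in WT (-2.67). EXPA10 had 21.3 FPKM in syd-5 and 175 FPKM in WT (-2.98), and EXPA8 had 14.0 FPKM in syd-5 and 56.0 FPKM in WT (-1.92). The root hair members EXPA7 and EXPA18 stood at -0.27 and -0.22 and did not pass. EXPA14 rose by 1.18.

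The EXORDIUM family, secreted proteins linked to brassinosteroid-dependent growth and to low carbon, had 6 rises and 0 falls among 8 members. PHI-1 had 54.9 FPKM in syd-5 and 3.06 in WT, EXO had 325 FPKM in syd-5 and 34.6 in WT, EXL3 had 245 FPKM in syd-5 and 37.6 in WT and EXL5 had 76.4 FPKM in syd-5 and 12.2 in WT. Their sum was 1042 FPKM in syd-5 and 261 FPKM in WT. Of 42 arabinogalactan and fasciclin-like protein genes, which encode heavily glycosylated surface proteins, 17 rose and 1 fell. AGP17 had 106 FPKM in syd-5 and 16.4 FPKM in WT (2.62), and FLA9 had 318 FPKM in syd-5 and 112 FPKM in WT (1.49). THE1, a receptor kinase that senses damage to cellulose, had 68.5 FPKM in syd-5 and 17.3 FPKM in WT (1.93), and the related receptor gene FER had 148 FPKM in syd-5 and 79.5 in WT (0.89). Of the cellulose synthase genes CESA5 fell by 0.76, and CESA2 and CESA6 rose by 0.41 and 0.35, while CESA1 and CEV1 (CESA3) did not pass. Calmodulin-like genes had 5 rises and 1 fall among 13 tested loci, with a median of 0.23 and a range from -1.80 to 2.05. The touch gene TCH3 had 521 FPKM in syd-5 and 173 FPKM in WT (1.59), and CML38 had 15.1 FPKM in syd-5 and 2.88 in WT (2.05).

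**Figure D5:**
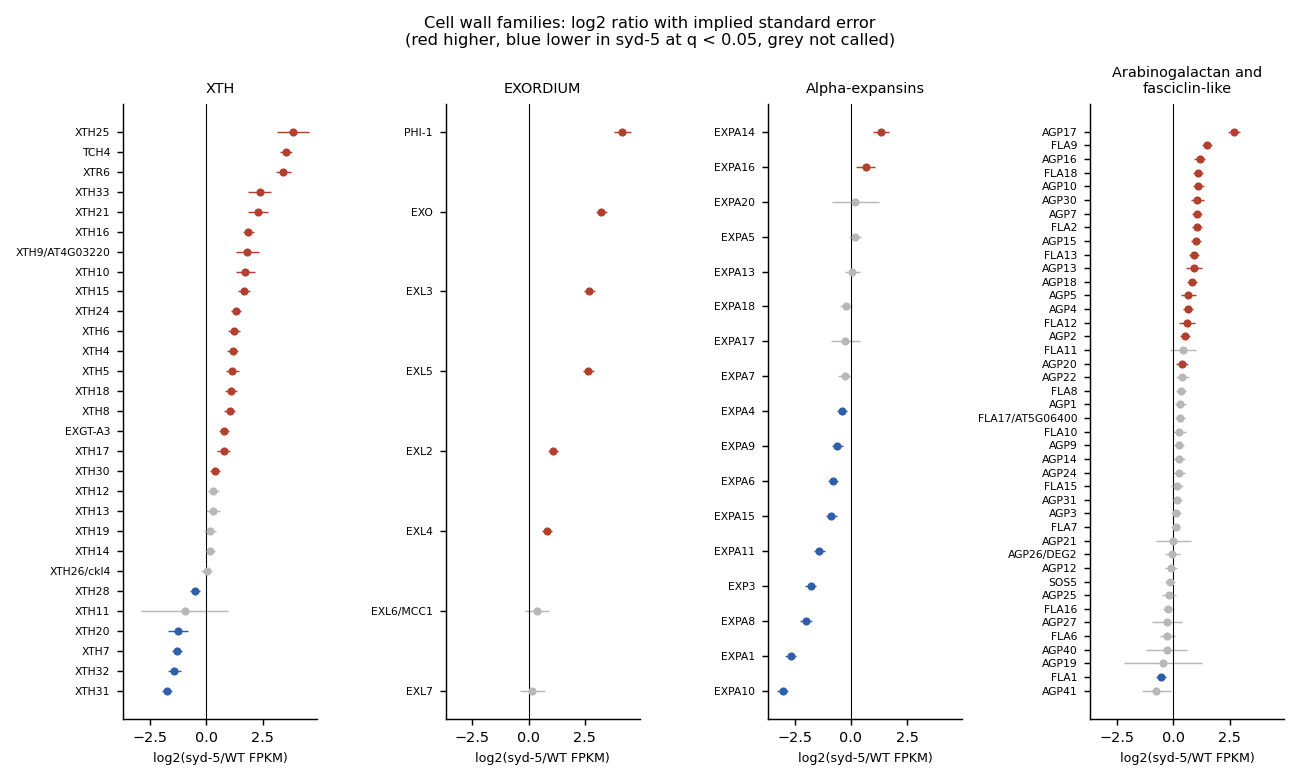
Points give the log2 ratio of syd-5 over WT FPKM without a pseudocount for the tested loci of 4 wall families, and bars the implied standard error on each side. Red loci rose, blue loci fell and grey loci did not pass q under 0.05. All 6 called EXORDIUM loci lie to the right, while 9 of the 11 called alpha-expansins lie to the left.

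Called suberin genes were all higher in syd-5, whereas falls outnumbered rises among lignin genes. Of 14 tested suberin genes, which build the water barrier of root endodermis and periderm, 9 rose and 0 fell, with CYP86A1 (26.5 FPKM in syd-5, 10.5 in WT), FAR4 (1.101) and CYP86B1 (1.08) in front. Root markers moved the same way, with 7 rises among 13. Of 27 wax and cutin genes of the shoot surface 4 rose and 8 fell, with CYP77A6 at -1.45 and KCS1 at 1.22. Of 25 phenylpropanoid and lignin genes 12 fell and 3 rose, including the entry enzyme PAL1 (82.6 FPKM in syd-5, 176 in WT), 4CL3 (4.39 FPKM in syd-5, 19.4 in WT) and FAH1 (26.2 FPKM in syd-5, 61.5 in WT). Among lipid transfer proteins LTP4 rose to 16.2 FPKM in syd-5, against 0.862 in WT, and LTP5 fell to 374 FPKM in syd-5, against 809 in WT.

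Adjacent genes of triterpene synthesis rose together. Arabidopsis keeps the genes for a few root triterpenes in clusters, and these 3 clusters were drawn up after their values were seen. In the thalianol cluster 5 of 5 tested genes rose. The cyclase gene THAS1 had 33.2 FPKM in syd-5 and 8.74 FPKM in WT (1.81), and the P450 genes that act on its product, CYP708A2 (31.1 FPKM in syd-5, 9.47 in WT) and CYP705A5 (66.1 FPKM in syd-5, 11.7 in WT), rose by 1.61 and 2.396. A run of 4 of them lies on chromosome 5 between 19428888 and 19461689. The longest run of adjacent tested loci that changed in the same direction had 7 loci, on chromosome 4 between 8751387 and 8813478, from CYP705A1 to BIA1, with rises of 0.50 to 1.55. The baruol synthase gene BARS1 (0.406 FPKM in syd-5, 0.195 in WT) and CYP705A3 (0.148 FPKM in syd-5, 0.0355 in WT) lie within this stretch and were not tested. The run holds the arabidiol synthase gene PEN1 (4.64 FPKM in syd-5, 2.98 in WT), and only 1 of the 6 called genes of that cluster, the merged locus of CYP702A5 and CYP702A6, reached 5 FPKM. In the marneral cluster CYP705A12 (1.77) and CYP71A16 (1.34) rose, and the cyclase gene MRN1 was listed at 0.0651 FPKM in syd-5 and 0.0450 FPKM in WT and was not tested. These clusters are known for expression in roots, and 7 of 13 root markers rose, while 6 did not pass.

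Over the 5 nuclear chromosomes 1556 pairs of adjacent tested loci were both called, and 948 of them (60.9%) changed in the same direction. Runs of at least 4 loci numbered 31, of which 23 rose and 8 fell. Shares and runs for loci in random order were not computed, so no excess over such an order is claimed. Besides the triterpene genes, they included the wall-associated kinase genes from WAKL6 to WAKL5 on chromosome 1 (5518257 to 5538269), with rises of 0.435 to 1.305, and the nitrile specifier genes NSP3, NSP1 and NSP4, which steer glucosinolate breakdown, on chromosome 3 (5562254 to 5583187). Neighbouring genes in such runs are often tandem copies that can share reads.

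Plastid and light genes mostly fell where they changed. Of 23 loci of chlorophyll synthesis and its GLK regulators 10 fell and 1 rose. The regulator genes GPRI1, also called GLK1 (21.2 FPKM in syd-5, 58.8 in WT), and GLK2 (22.7 FPKM in syd-5, 48.1 in WT), which activate photosynthesis genes, fell by 1.43 and 1.05, and GUN4, which aids magnesium chelatase, by 0.86. Of 26 nuclear genes for photosystem and ATP synthase subunits 0 rose and 8 fell, each by 0.66 or less, and 5 falls were counted without merged loci. Of 11 tested plastid-encoded loci 0 were called. Several of these merge many plastid genes.

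Of 37 light receptor and signalling genes 17 fell and 5 rose. UNE10, a phytochrome-interacting factor gene (PIF8), had 10.7 FPKM in syd-5 and 42.5 FPKM in WT (-1.90). The light-stress genes ELIP1 (-1.73) and ELIP2 (5.58 FPKM in syd-5, 20.4 in WT), the COP1 partner gene SPA3 (-1.62) and PIF3 (11.5 FPKM in syd-5, 29.8 in WT) fell. PHYA (56.7 FPKM in syd-5, 34.2 in WT), which encodes the phytochrome of darkness and far-red light, and PIL6 (PIF5; 12.8 FPKM in syd-5, 7.45 in WT) rose by 0.71 each. The B-box regulators split, with STH (-2.11) and COL1 (-1.702) lower and BZS1 (1.60) higher. Among GATA factors 10 of 25 fell and 1 rose. CGA1, which promotes chloroplast development, had 10.03 FPKM in syd-5 and 29.7 in WT, and BME3 had 70.4 FPKM in syd-5 and 22.9 in WT.

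Defence and secondary metabolism lists had called shares above the 28.0% of all tested loci, but falls among cysteine-rich receptor-like kinases and WRKY genes stayed under the 14.1% background of falls. Of 14 tested defensin, thionin and pathogenesis-related loci 8 rose and 3 fell. The largest rises were PR5 (114 FPKM in syd-5, 15.3 in WT) and PR1 (201 FPKM in syd-5, 29.9 in WT). Next came the defensin locus of PDF1.3 and PDF1.2b at 253 FPKM in syd-5 and 47.2 in WT. The thionin gene THI2.2 followed at 8.98 FPKM in syd-5 and 1.76 in WT. The falls were PR4 (460 FPKM in syd-5, 788 in WT), HCHIB and OSM34. Of 28 cysteine-rich receptor-like kinase loci 13 rose and 3 fell, the largest rise being the merged locus of CRK28 and CRK29 at 40.1 FPKM in syd-5 and 16.9 in WT. Of 59 WRKY genes 13 rose and 8 fell. WRKY38 (5.46 FPKM in syd-5, 0.257 in WT), WRKY18 (46.0 FPKM in syd-5, 12.6 in WT) and WRKY48 (7.08 FPKM in syd-5, 1.59 in WT) were higher in syd-5, and WRKY28 was lower (1.77 FPKM in syd-5, 5.97 in WT). Among 143 cytochrome P450 loci 45 rose and 34 fell, and 27 rises were left at 5 FPKM or more. CYP707A3 (6.72 FPKM in syd-5, 0.867 in WT) and CYP707A2 (1.14 FPKM in syd-5, 9.19 in WT), which both break down abscisic acid, moved apart. Of 49 UDP-glycosyltransferases 16 fell and 8 rose, led by UGT75B1 (22.6 FPKM in syd-5, 132 in WT) and UGT74D1 (22.7 FPKM in syd-5, 99.3 in WT). IAGLU, an auxin glucosyltransferase gene named by the size of its fall, had 21.0 FPKM in syd-5 and 149 FPKM in WT.

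Growth regulators gave a mixed result by family. Of 61 tested SAUR genes, short-lived auxin-induced transcripts, 20 fell and 4 rose, with AT1G75580 (2.01 FPKM in syd-5, 11.8 in WT) and SAUR68 (3.10 FPKM in syd-5, 13.0 in WT) among the falls and AT1G72430 (128 FPKM in syd-5, 45.8 in WT) as the strongest called rise. Their close copies share reads, so single members are uncertain. Of 18 TCP genes 8 fell and 4 rose. TCP17, a CINCINNATA-type factor of leaf growth, had 0.255 FPKM in syd-5 and 6.42 FPKM in WT (-2.56, implied standard error of the ratio 1.11), and TCP14, TCP9 and TCP11 of the other class rose by 1.002, 1.04 and 1.097. Of 36 ERF and DREB factors 14 fell and 5 rose, and the hypoxia-linked genes ERF73 (14.4 FPKM in syd-5, 4.53 in WT) and ERF71 (2.26 FPKM in syd-5, 0.225 in WT) were among the rises. Of 28 aquaporin genes 5 rose and 5 fell, with PIP3 (776 FPKM in syd-5, 308 in WT) and DELTA-TIP (776 FPKM in syd-5, 312 in WT) as the strongest rises.

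Chromatin and RNA machinery stayed near or under the background. Of 24 DNA methylation and demethylation genes 1 rose and 3 fell, with DME at 0.37 and RDM1 at -0.74. Of 24 small RNA genes 0 rose and 1 fell, AGO10 at -0.40. Of 22 loci listed for other chromatin remodellers 2 rose and 0 fell, the strongest being the merged locus of SEF at 0.63. That list also took in genes of histone chaperones, among them FAS1, FAS2, ASF1B, HIRA and SPT16, which are not remodellers. These named chaperone genes did not pass, and a share for remodellers alone was not computed. Of 20 loci listed for ribosome biogenesis 4 rose and 0 fell, and 1 of these rises passed q under 0.01. That list was matched by symbol, and its RRS1 (AT5G45260), BOP1 (AT3G57130) and RPF2 (AT1G62670) are other genes of the same symbol. None of them passed, and a share without them was not computed. Of 20 endoplasmic reticulum stress genes 3 rose and 1 fell. The called shares of these lists, from 4.17% for small RNA genes to 20%, lie below the 28.0% over all tested loci. The 20% holds for endoplasmic reticulum stress and for the ribosome biogenesis list with RRS1, BOP1 and RPF2 included.

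Some genes were nearly silent in 1 genotype. Called loci with under 0.5 FPKM in WT and at least 1 FPKM in syd-5 numbered 93, of which 81 were single protein-coding genes. They included TPS04, a terpene synthase gene (3.52 FPKM in syd-5, 0.167 in WT), the heat shock gene HSP23.6-MITO (2.61 FPKM in syd-5, listed at 0 in WT) and AT1G26390 (8.77 FPKM in syd-5, 0.204 in WT). The opposite pattern held for 53 called loci, 44 of them single protein-coding genes, among them the auxin synthesis gene YUC2 (0.352 FPKM in syd-5, 2.95 in WT), IAA29 (0.347 FPKM in syd-5, 3.47 in WT), the ethylene factor gene ERF1 (0.209 FPKM in syd-5, 2.49 in WT) and SAUR24 (listed at 0 in syd-5, 3.31 FPKM in WT). TPS04, HSP23.6-MITO, AT1G26390 and YUC2 were chosen as examples after their values were seen. Most of these levels are low, so their ratios are imprecise.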

How the data were processed

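RNA of 14-day-old seedlings was sequenced as paired reads, per the labels' protocols, with 3 biological replicates each of syd-5 and WT. Per the submitters' processing notes, the tools were Cuffdiff 2.1.1, TopHat2 2.1.1 and Cufflinks 2.1.1, with TAIR10 as the build. How they were set, the library kit and its strandedness are not given in these sources, so reads of overlapping antisense genes cannot be separated. The authors deposited 1 pooled FPKM per locus and genotype, per the file headers, together with a test statistic (a score) and a p-value and q-value for each locus. Depth per sample is unknown.

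Loci with status OK and at least 1 FPKM in syd-5 or WT were kept. Log2 fold changes used a pseudocount of 1 FPKM, and calls the authors' q under 0.05. A model on values per library had been planned and could not be fitted to pooled values. The implied standard error is the log2 ratio without pseudocount over the authors' test statistic. The authors' p corresponds to a normal deviate that was in the median 1.74 times the statistic, so at the median locus the error behind their p is smaller. This did not hold for every locus. PAP14 had a q of 0.236 at a log2 fold change of -3.16 and an implied standard error of 0.987. The implied standard error therefore does not tell which loci passed. The smallest q, 0.000567, is shared by 2611 calls. Of the loci kept, 1994 merge several genes, whose reads cannot be split. Of 33553 gene identifiers 32806 matched a RefSeq table (TAIR10.1), used for symbols, types and lengths, while coordinates are the deposited ones (TAIR10) with starts raised by 1. A gene at several loci was taken at its highest.

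Members and the 67 gene lists were chosen with earlier results of these data known, and 3 of the lists after their values were seen. Named genes are SYD, the 20 largest rises and falls and the 8 of each with the largest statistic among calls averaging 5 FPKM or more, up to 4 called members per list by size and any member of lists of at most 15. Other list members were named as examples of a role after their values were seen. Promoter motifs and sequences are not analysed here. The table holds 1 further condition that matches no label and was not used. Python 3.11.15 with pandas, numpy and matplotlib was used, and counting was tested on simulated data.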

Additional observations from a re-analysis of the deposited data

How the results depend on the processing

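With a doubling or a halving added to q under 0.05, 1251 loci were called, 671 of them higher and 580 lower in syd-5, against 5132, 2540 and 2592 without it. At q under 0.01 there were 3725 calls, at 5 FPKM or more 4394, with no filter 5219, over loci with 1 gene name 4718, and with the authors' p adjusted over this comparison alone 5443. A pseudocount of 0.1, quantile normalization and centring left the number at 5132, since they do not enter the authors' q. No named locus called at q under 0.05 changed direction under quantile normalization or centring, and centring moved each fold change by only 0.0089. The other settings cannot change the sign of a fold change, so they say nothing on direction. Changes of sign among named loci that were not called were not counted. At q under 0.01, 30 named loci no longer passed. The median of the leaf markers was -0.37 as deposited and 0 after quantile normalization, which sets loci of unchanged rank to 0. The rises of the R2R3-MYB list were 17 at q under 0.05 and 10 at q under 0.01. Of the 408 named loci 294 were called, and of the 1610 loci in the lists 736. Precision is limited at low levels. No paired analysis was possible because the table holds 1 pooled value per genotype, and for the same reason no replicate could be left out.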

Other observations

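Other families were counted in the authors' deposited table. Of 27 loci listed for Aux/IAA repressors, which block auxin response, 2 rose and 9 fell in syd-5. Among them were IAA7 at 84.0 FPKM in syd-5 and 133 in WT and SHY2 at 31.6 FPKM in syd-5 and 14.4 in WT. The list also took in MP and NPH4, which are auxin response factor genes and not repressors, and neither passed. Of 11 JAZ repressors of jasmonate response 6 rose and 0 fell, with JAZ7 at 6.17 FPKM in syd-5 and 0.560 in WT. Of 10 growth-regulating factor and GIF genes 1 rose, GRF5 at 11.0 FPKM in syd-5 and 5.03 in WT. Of 5 GASA peptide genes 1 rose and 2 fell, with GASA6 at 141 FPKM in syd-5 and 329 in WT. Of 41 glutathione transferase loci 13 rose and 8 fell, with GSTU25 at 1.59 and GSTU7 at -1.32. Of 14 pectin methylesterase genes, which harden or soften pectin, 6 rose and 3 fell, with PMEPCRA at 171 FPKM in syd-5 and 67.0 in WT.

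Transcription factor families are given beside the 28.0% called over all tested loci. The called share was 28.1% for bZIP genes, 29.4% for auxin response factors, 25% for DOF genes and 23.5% for heat shock factors, which is near or under that background. It was higher for the other families below, between 34.8% for NAC and 46.2% for homeodomain genes. Of 30 MADS-box genes 8 rose and 3 fell, with AGL42 at 1.12 and AGL87 at -1.02. Of 74 R2R3-MYB genes 17 rose and 17 fell, and 9 rises and 14 falls were left at 5 FPKM or more, with MYB67 at 1.45 and MYB112 at -1.43. Of 66 NAC genes 9 rose and 14 fell, with ATAF1 at 32.3 FPKM in syd-5 and 94.3 in WT. Of 52 homeodomain genes 10 rose and 14 fell, with HB1 at 1.36 and HB22 at -1.38. Of 32 bZIP genes 7 rose and 2 fell, with the G-box factor gene GBF2 at 28.2 FPKM in syd-5 and 12.8 in WT. Of 17 heat shock factor genes 4 rose and 0 fell, with HSFA3 at 0.84. Of 12 DOF genes 0 rose and 3 fell, with CDF3 at -0.85, and of 16 C2H2 zinc finger loci 2 rose and 4 fell, with STZ at -1.14. Of 17 auxin response factors 2 rose and 3 fell. Outside these families, of 12 tested mitochondrial loci 2 rose and 0 fell, at 0.67 and 0.49.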
